A study of Homo sapiens with 30 samples.

Results

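The NF-kB subunits and feedback inhibitors described here are 10 genes, NFKBIA, NFKBIE, TNFAIP3, BIRC3, NFKB1, NFKB2, RELA, RELB, REL and BCL3. They were taken by symbol from the 26801 genes of a deposited table of FPKM, a fragment count scaled to transcript length and to the mapped fragments of the library, and all 10 were found. Messenger RNA captured by its poly(A) tail was sequenced in 30 libraries, 10 groups of 3, all from A549, a widely used cell line grown from a human lung adenocarcinoma. The knockout groups are iR_KOA_D3_EX, iR_KOA_D3_NE, iR_KOA_EX, iR_KOA_NE, KOA_EX and KOA_NE, whose genotype is RSRP1 KO. The wild-type groups are iR_WTA_D3_EX, iR_WTA_D3_NE, iR_WTA_EX and iR_WTA_NE. EX stands for a magnetic exposure labelled 2 H and NE for no magnetic field. What iR and D3 stand for is not stated in the labels, so both are kept as names, and the labels name 1 knockout genotype without saying whether it is 1 clone. By its title the series asks how magnetism acts against non-small cell lung cancer through RSRP1 and secretory signalling. The groups allow exposure, genotype, D3 and iR each to be compared with the other labels held equal, though not in every combination. Genotype and D3 can be compared only among groups with iR, and iR only in the knockout without D3.

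NF-kB is a family of dimeric transcription factors that IkB proteins hold in the cytoplasm. When receptors for TNF, interleukins or microbial products activate the IKK kinase complex, IkB is marked for destruction and the dimers enter the nucleus, where they switch on inflammatory and survival genes together with their own inhibitors, which ends the signal. In the noncanonical branch the kinase MAP3K14 drives processing of the NFKB2 precursor, which pairs with RELB, and complexes of TRAF proteins with the ubiquitin ligases BIRC2 and BIRC3 restrain that kinase. The lung epithelium uses this pathway in its inflammatory response to microbes and cytokines.

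Start-site windows are shown for 4 members whose levels are followed below and whose window held the kB consensus, the decamer that NF-kB dimers recognise. They are the 250 bases before a start site in RefSeq on GRCh38.p14, 5′ to 3′ on the gene's strand, with matches to the consensus on either strand in capitals. They are NFKBIA (chr14:35404750-35404999, minus strand), BIRC3 (chr11:102317234-102317483, plus strand), NFKB1 (chr4:102501109-102501358, plus strand) and REL (chr2:60881324-60881573, plus strand).
NFKBIA: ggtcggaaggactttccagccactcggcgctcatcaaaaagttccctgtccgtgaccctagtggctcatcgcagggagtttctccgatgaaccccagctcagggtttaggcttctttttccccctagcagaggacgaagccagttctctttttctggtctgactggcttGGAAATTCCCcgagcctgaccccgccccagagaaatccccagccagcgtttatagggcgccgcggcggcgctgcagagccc
BIRC3: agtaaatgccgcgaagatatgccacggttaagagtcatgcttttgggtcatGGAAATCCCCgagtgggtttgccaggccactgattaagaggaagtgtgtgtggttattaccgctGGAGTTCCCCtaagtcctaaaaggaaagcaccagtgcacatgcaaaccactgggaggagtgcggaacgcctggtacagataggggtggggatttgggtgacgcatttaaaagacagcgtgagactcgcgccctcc
NFKB1: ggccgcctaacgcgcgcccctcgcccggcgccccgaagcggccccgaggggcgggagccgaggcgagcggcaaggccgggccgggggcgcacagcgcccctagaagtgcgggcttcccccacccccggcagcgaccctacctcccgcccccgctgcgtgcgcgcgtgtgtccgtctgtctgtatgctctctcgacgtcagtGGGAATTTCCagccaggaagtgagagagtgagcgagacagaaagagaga
REL: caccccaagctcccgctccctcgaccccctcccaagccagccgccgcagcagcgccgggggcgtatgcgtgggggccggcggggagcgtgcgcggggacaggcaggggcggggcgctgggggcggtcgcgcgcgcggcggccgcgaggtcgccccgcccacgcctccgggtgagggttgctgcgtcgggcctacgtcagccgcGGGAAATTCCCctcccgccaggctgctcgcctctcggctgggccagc
The capitals lie 81 to 72 bases before the start site in NFKBIA and 49 to 40 bases before it in NFKB1. BIRC3 has one match at 199 to 190 bases and another at 135 to 126 bases before it. The 11 capitals of REL are 2 overlapping matches, 47 to 37 bases before it. Promoter windows were at hand for 8 of the 10 members, not for NFKBIE and RELB, and several members have more than 1 start site, which gives 12 windows. The consensus was in at least 1 window of 6 of these 8 members and in 7 of the 12 windows, against 5.21% of all 35116 windows of that length. The members were chosen as known NF-kB genes, so this share is a description. TNFAIP3 and NFKB2 also held the consensus. The windows of RELA and BCL3, another NFKB1 window (chr4:102501684-102501933) and an NFKB2 window (chr10:102393860-102394109) held none, which says only that these letters are not in them.

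RSRP1 was at 2.09 to 7.95 FPKM in the 18 libraries labelled knockout and at 37.4 to 63.4 FPKM in the 12 labelled wild type. Within the knockout it differed by the label iR. It averaged 7.68 ± 0.252 FPKM in iR_KOA_NE and 2.43 ± 0.291 FPKM in KOA_NE (SD, n = 3 each). In the exposed groups it averaged 6.30 ± 0.523 FPKM in iR_KOA_EX and 2.16 ± 0.0656 FPKM in KOA_EX. The implied totals were 34600000 to 38900000 fragments a library, a ratio of 1.12, and pairs of replicates differed by 2.67 to 22.2 times the counting variance, so no library was a copy of another. No label states that the 3 libraries of a group were grown separately. The p-values therefore reflect the spread among these libraries, which may be technical. The epithelial keratins KRT8 and KRT18 and the A549 markers AKR1C1, AKR1B10 and ALDH1A1 were at 84.3 FPKM or more in every library, EPCAM was at 0.402 to 1.85 FPKM, and CDKN2A, which A549 cells have lost, was at 0.00622 FPKM or less. Of 10 measured markers of other cell types, PTPRC, LYZ, PECAM1, VWF, COL1A2, DCN and PDGFRA stayed at 0.0918 FPKM or less. CD68 was at 23.7 to 39.6 FPKM and COL1A1 at 0.443 to 3.71 FPKM, while the endothelial gene CDH5 was at 0.261 to 1.29 FPKM in knockout libraries and 0 to 0.0334 FPKM in wild-type libraries. The part of CDH5 in the genotype results was not tested. In bulk RNA, fewer cells that express a gene and less RNA of it per cell cannot be told apart.

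RELA was the most abundant subunit per length, at 22.3 to 32.8 FPKM, followed by NFKB1 at 5.76 to 9.75 FPKM and NFKB2 at 3.55 to 8.38 FPKM. RELB at 1.30 to 3.02 FPKM and REL at 1.01 to 2.03 FPKM were the scarcest. Among the inhibitors, NFKBIA stood at 19.8 to 38.0 FPKM, NFKBIE at 1.13 to 2.94 FPKM and TNFAIP3 at 0.406 to 0.813 FPKM. BIRC3 lay between 1.89 and 6.23 FPKM and BCL3 between 8.50 and 15.5 FPKM. The values rested on 1101 to 2063 reads a library for NFKBIA, on 96 to 239 reads for NFKBIE, on 105 to 256 reads for RELB and on 127 to 261 reads for TNFAIP3. Of the members, 9 reached 1 FPKM in at least 3 libraries and were tested. TNFAIP3 did not, and its differences come from a fit of all 25991 genes with a value above 0.

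**Figure D1:**
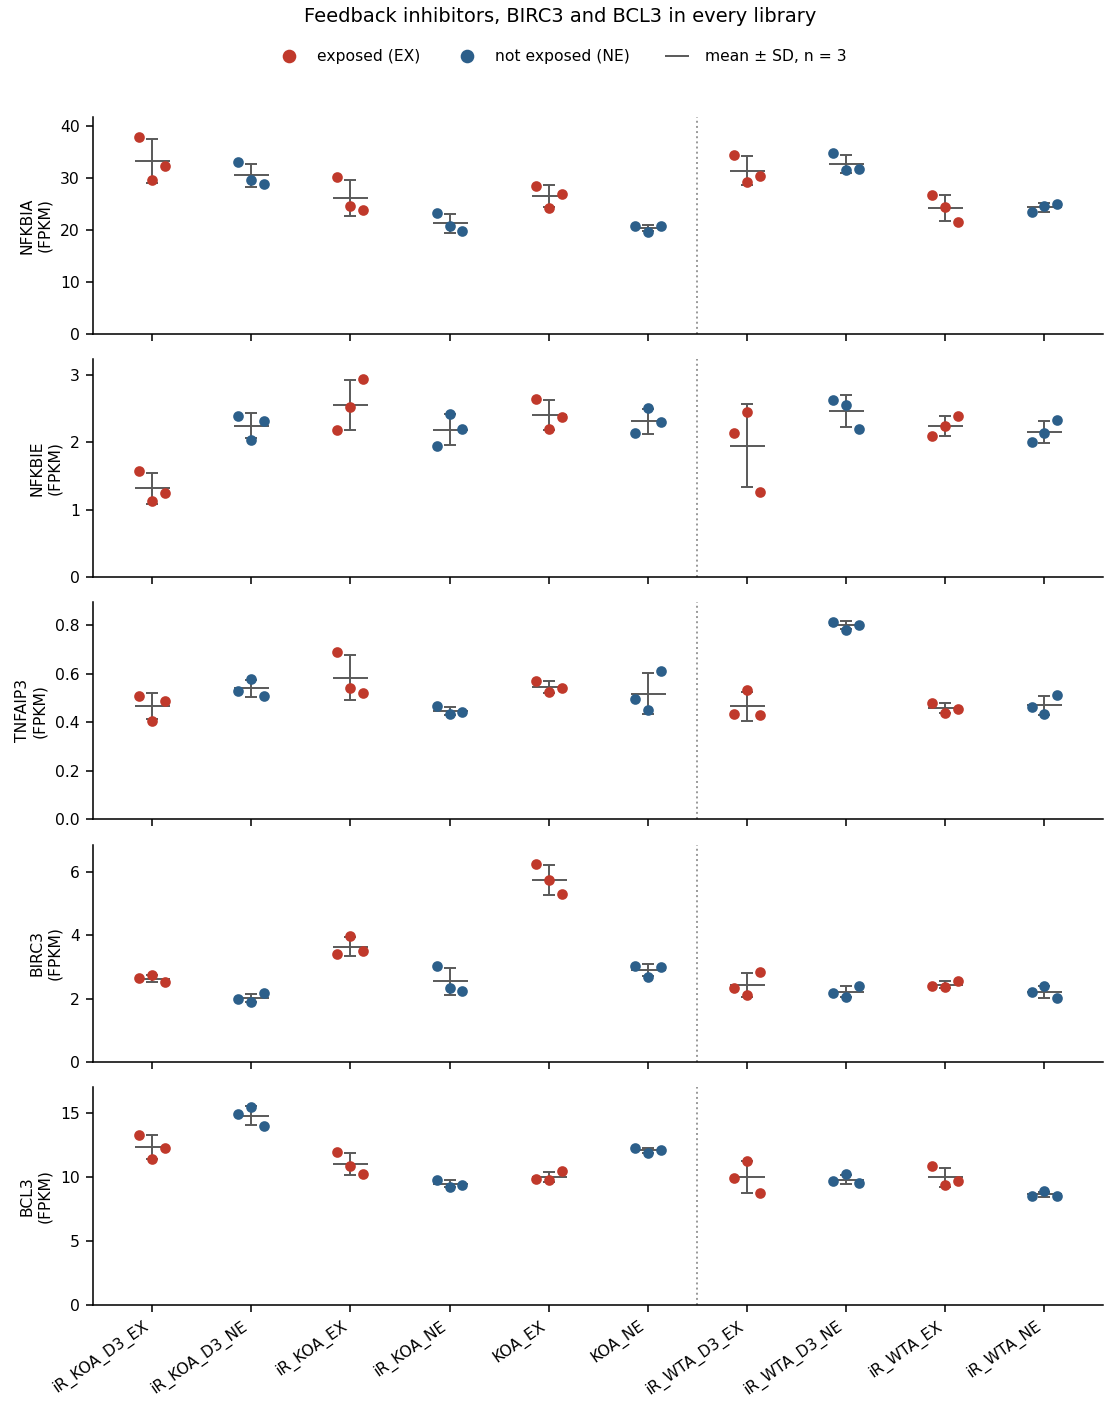
FPKM of NFKBIA, NFKBIE, TNFAIP3, BIRC3 and BCL3 (vertical axes, linear from 0) in each library of the 10 groups (horizontal axis), with red points for exposed and blue points for unexposed libraries, bars for the mean ± SD of 3 libraries and a dotted line between knockout and wild-type groups. BIRC3 is highest in the 3 KOA_EX libraries at 5.29 to 6.23 FPKM, and TNFAIP3 is highest in the 3 iR_WTA_D3_NE libraries at 0.781 to 0.813 FPKM.

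**Figure D2:**
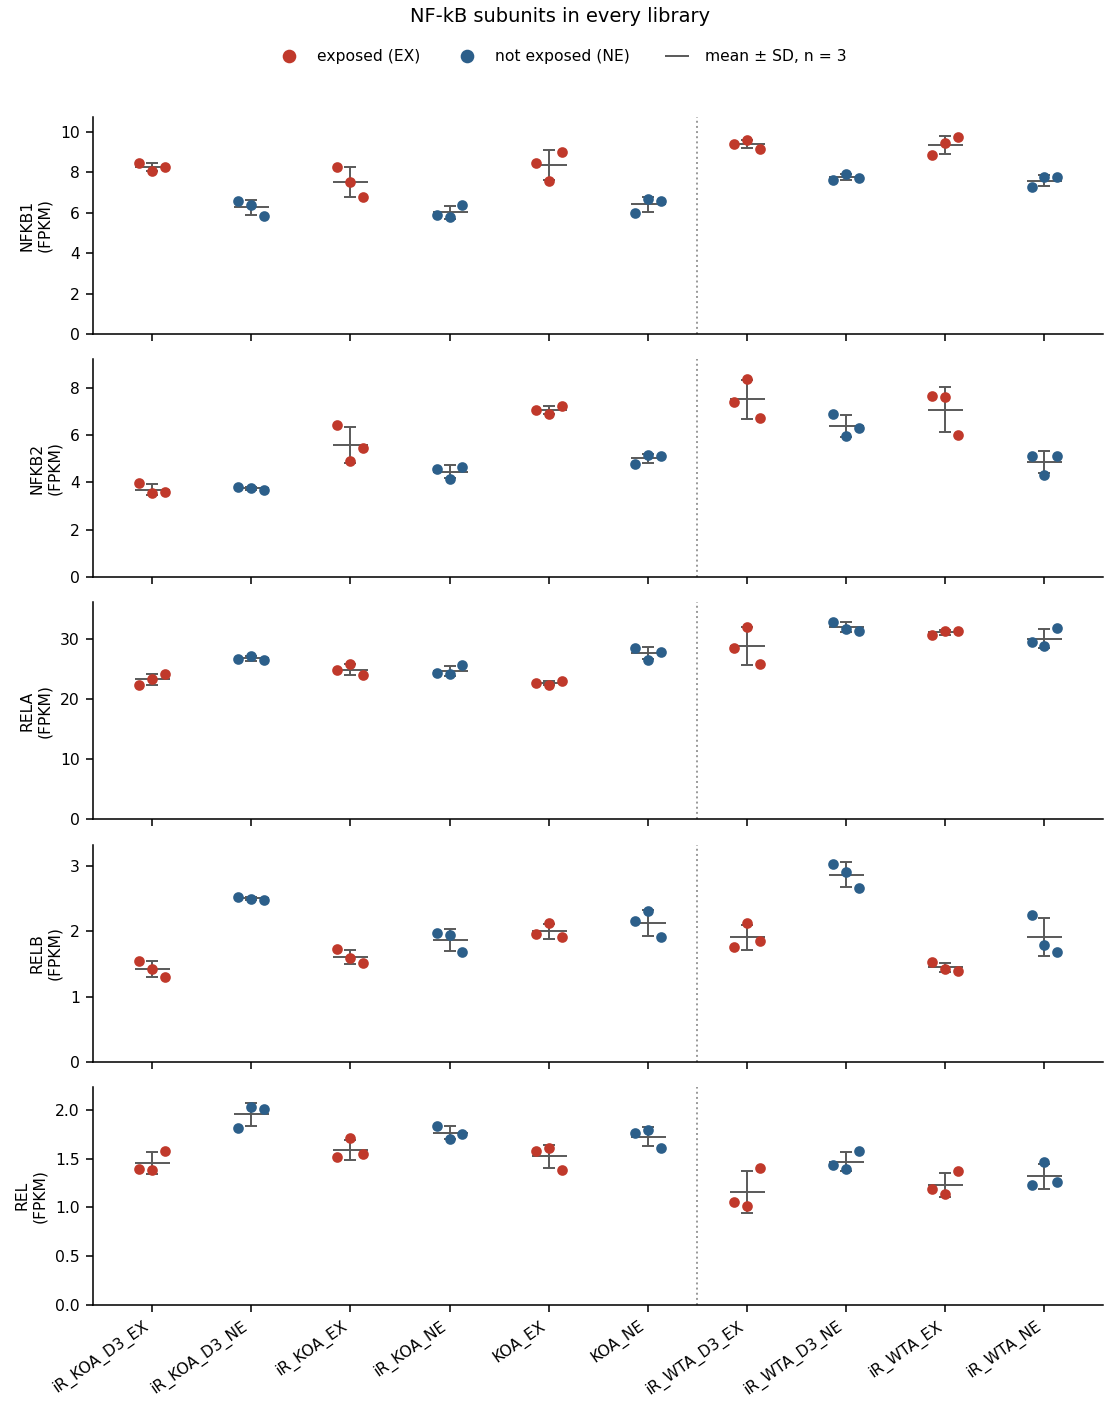
FPKM of NFKB1, NFKB2, RELA, RELB and REL (vertical axes, linear from 0) in each library of the 10 groups (horizontal axis), drawn in the same way. Each exposed NFKB1 group lies above its unexposed partner, and NFKB2 is lowest in the 6 knockout libraries with the label D3, at 3.55 to 3.96 FPKM.

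With magnetic exposure, members changed in both directions in every background but iR_KOA, where those that passed the test all rose. NFKB1 was the member whose rise with exposure passed the test in all 5 backgrounds, and NFKB2 rose in 4 of them. BIRC3 rose in the 3 knockout backgrounds, whereas the declines of RELB, RELA and REL were each past the test in 2 or 3 backgrounds. Differences are exposed minus unexposed in log2(FPKM + 1), a scale that understates changes of genes with low FPKM, tested with limma at an adjusted p of 0.05. In iR_KOA_D3, 2 members rose and 5 fell, 7 of 9 or 77.8%, where 45.1% of all tested genes passed (17.3% higher, 27.8% lower). In iR_KOA, 5 members rose and none fell, 55.6%, where 35.3% of all genes passed (13.1% higher, 22.3% lower). In KOA, 4 rose and 2 fell, 66.7%, against 41.5% of all genes (18.8% higher, 22.7% lower). In iR_WTA_D3, 2 rose and 3 fell, 55.6%, against 41.8% of all genes (15.3% higher, 26.5% lower). In iR_WTA, 3 rose and 1 fell, 44.4%, against 28.6% of all genes (11.4% higher, 17.2% lower). The median member differed by -0.19 in iR_KOA_D3, 0.20 in iR_KOA, 0.04 in KOA, -0.06 in iR_WTA_D3 and 0.05 in iR_WTA, and the median of all genes lay between -0.05 and -0.02. With so many genes called in each background, 9 members are few to set against these shares. Of all genes called, 36.9% were higher in iR_KOA, 48.5% after median-of-ratios scaling and 48.1% after quantile normalization. In iR_WTA_D3 the share was 36.6%, 48.0% and 47.7% in the same order.

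**Figure D3:**
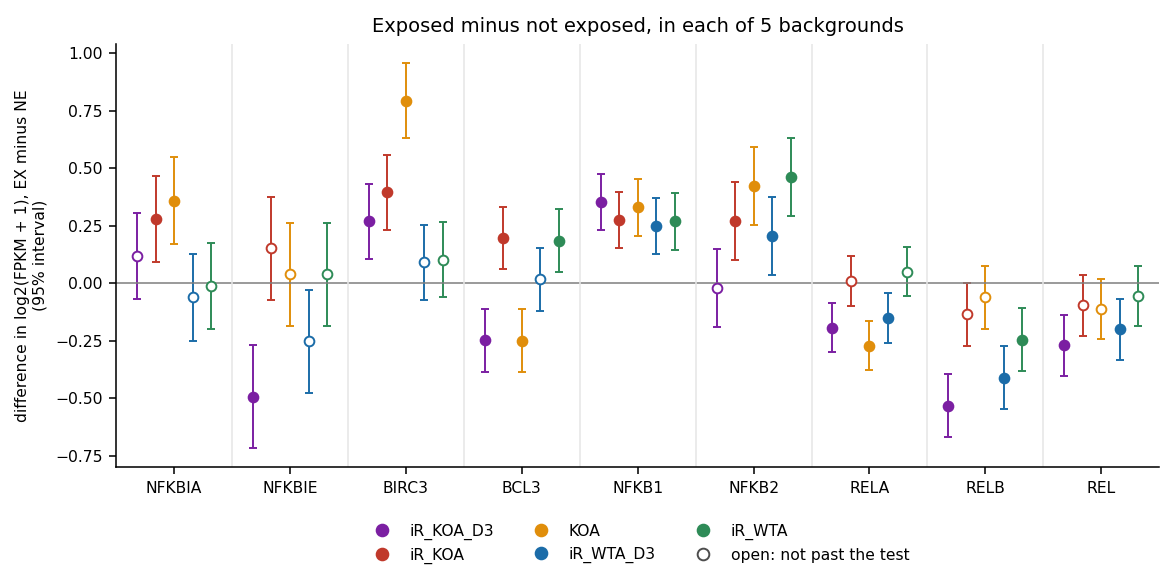
Difference in log2(FPKM + 1) between exposed and unexposed libraries (vertical axis, EX minus NE) for the 9 tested members (horizontal axis) in each of 5 backgrounds (colours), with 95% intervals from limma and open points where the adjusted p was not under 0.05. NFKB1 is above 0 in all 5 backgrounds at 0.25 to 0.35, RELB lies at or below -0.06 in all 5, and BCL3 is positive in some and negative in others.

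NFKB1 (chromosome 4, 102501359 to 102617302 on GRCh38.p14, NCBI gene 4790) encodes the precursor of the DNA-binding subunit that pairs with RELA. It had 8.47, 8.08 and 8.24 FPKM in iR_KOA_D3_EX, against 6.58, 6.37 and 5.82 FPKM in iR_KOA_D3_NE. In iR_KOA_EX it had 8.26, 7.49 and 6.76 FPKM, against 5.88, 5.76 and 6.39 FPKM in iR_KOA_NE. In KOA_EX it had 8.46, 7.55 and 9.00 FPKM, against 6.00, 6.69 and 6.55 FPKM in KOA_NE. In the wild type the same order was seen at a higher level. NFKB1 had 9.39, 9.58 and 9.16 FPKM in iR_WTA_D3_EX, against 7.61, 7.89 and 7.70 FPKM in iR_WTA_D3_NE. It had 8.85, 9.43 and 9.75 FPKM in iR_WTA_EX, against 7.25, 7.73 and 7.75 FPKM in iR_WTA_NE. All 3 exposed libraries were above all 3 unexposed ones in each background. The differences were 0.35, 0.28, 0.33, 0.25 and 0.27 (SE 0.060 each, n = 3 a group, limma adjusted p = 3.28e-05, 0.00095, 7.85e-05, 0.00158 and 0.00128), or 1.21 to 1.32 times in mean FPKM. None of these calls was lost when any 1 library was left out.

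NFKB2 (chromosome 10, 102394110 to 102402529, NCBI gene 4791), the precursor of the noncanonical subunit, had 6.43, 4.92 and 5.46 FPKM in iR_KOA_EX, against 4.58, 4.13 and 4.67 FPKM in iR_KOA_NE. It had 7.08, 6.89 and 7.23 FPKM in KOA_EX, against 4.80, 5.15 and 5.10 FPKM in KOA_NE. It had 7.66, 7.61 and 6.01 FPKM in iR_WTA_EX, against 5.14, 4.31 and 5.13 FPKM in iR_WTA_NE. Exposed and unexposed libraries did not overlap in these 3 backgrounds, and NFKB2 rose by 0.27 (SE 0.083, limma adjusted p = 0.0131), 0.42 (0.000192) and 0.46 (0.000141). The iR_KOA rise was lost without iR_KOA_EX replicate 1 (0.18, adjusted p = 0.108) or iR_KOA_NE replicate 2 (0.23, adjusted p = 0.0666). In iR_WTA_D3_EX it had 7.42, 8.38 and 6.75 FPKM, against 6.89, 5.96 and 6.29 FPKM in iR_WTA_D3_NE, which overlap, and the difference of 0.20 had an adjusted p of 0.0493. That call was lost without iR_WTA_D3_EX replicates 1 or 2 or iR_WTA_D3_NE replicates 2 or 3, down to 0.13 (adjusted p = 0.237). In iR_KOA_D3_EX it had 3.96, 3.55 and 3.58 FPKM, against 3.80, 3.78 and 3.68 FPKM in iR_KOA_D3_NE, a difference of -0.02 with a 95% interval of -0.19 to 0.15.

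RELA (chromosome 11, 65653601 to 65663857, NCBI gene 5970), the main transactivating subunit, had 22.3, 23.3 and 24.2 FPKM in iR_KOA_D3_EX, against 26.6, 27.2 and 26.4 FPKM in iR_KOA_D3_NE. In KOA_EX it had 22.7, 22.3 and 22.9 FPKM, against 28.4, 26.5 and 27.7 FPKM in KOA_NE. All exposed libraries of both backgrounds were below their unexposed partners, and RELA fell by 0.19 (SE 0.052, limma adjusted p = 0.00365) and 0.27 (adjusted p = 0.000149). In iR_KOA_EX it had 24.9, 25.8 and 23.9 FPKM, against 24.3, 24.1 and 25.7 FPKM in iR_KOA_NE, and in iR_WTA_EX 30.6, 31.4 and 31.2 FPKM, against 29.4, 28.8 and 31.8 FPKM in iR_WTA_NE. Those groups overlap, with differences of 0.01 and 0.05 (adjusted p = 0.897 and 0.51). In iR_WTA_D3_EX it had 28.4, 32.0 and 25.7 FPKM, against 32.8, 31.6 and 31.2 FPKM in iR_WTA_D3_NE. The difference of -0.15 (adjusted p = 0.022) was lost under median-of-ratios scaling (-0.11) and quantile normalization (-0.12), and it was -0.08 (adjusted p = 0.217) without iR_WTA_D3_EX replicate 3. It was also lost without replicate 1 of either group (-0.15 and -0.13, adjusted p = 0.0572 and 0.0851) and was -0.23 without iR_WTA_D3_EX replicate 2.

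RELB (chromosome 19, 45001464 to 45038192, NCBI gene 5971), the partner of processed NFKB2, had 1.54, 1.42 and 1.30 FPKM in iR_KOA_D3_EX, against 2.53, 2.49 and 2.48 FPKM in iR_KOA_D3_NE. In iR_WTA_D3_EX it had 1.75, 2.12 and 1.84 FPKM, against 3.02, 2.91 and 2.65 FPKM in iR_WTA_D3_NE. The exposed libraries of both D3 backgrounds were all below the unexposed ones, and RELB fell by 0.53 (SE 0.066, limma adjusted p = 5.18e-07) and 0.41 (adjusted p = 2.34e-05). In iR_WTA_EX it had 1.53, 1.41 and 1.39 FPKM, against 2.24, 1.79 and 1.69 FPKM in iR_WTA_NE, a fall by 0.25 (adjusted p = 0.00684). Without iR_WTA_NE replicate 1, the highest of the unexposed libraries, the difference was -0.16 (adjusted p = 0.0746). In iR_KOA_EX RELB had 1.73, 1.59 and 1.51 FPKM, against 1.98, 1.94 and 1.67 FPKM in iR_KOA_NE, and in KOA_EX 1.95, 2.12 and 1.92 FPKM, against 2.15, 2.31 and 1.91 FPKM in KOA_NE. Those differences of -0.13 and -0.06 did not pass (adjusted p = 0.119 and 0.498).

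REL (chromosome 2, 60881574 to 60931612, NCBI gene 5966), the c-Rel subunit best known from lymphocytes, had 1.39, 1.38 and 1.58 FPKM in iR_KOA_D3_EX, against 1.82, 2.03 and 2.02 FPKM in iR_KOA_D3_NE, with no overlap and a fall by 0.27 (SE 0.064, limma adjusted p = 0.00124). In iR_WTA_D3_EX it had 1.05, 1.01 and 1.41 FPKM, against 1.44, 1.40 and 1.58 FPKM in iR_WTA_D3_NE, and replicate 3 of the exposed group lay within the unexposed range. That difference of -0.20 (adjusted p = 0.0138) was lost after quantile normalization (-0.11, adjusted p = 0.167). It was also lost without iR_WTA_D3_EX replicate 1 or 2 or iR_WTA_D3_NE replicate 3 (-0.17, -0.15 and -0.17, adjusted p = 0.0681, 0.0815 and 0.0685). The other 3 backgrounds, of both genotypes, had 1.13 to 1.71 FPKM in exposed and 1.23 to 1.84 FPKM in unexposed libraries. In KOA the exposed libraries were all below the unexposed ones, by a narrow margin (1.610 against 1.614 FPKM), and in iR_KOA and iR_WTA they overlapped. The differences of -0.10 in iR_KOA, -0.11 in KOA and -0.06 in iR_WTA did not pass.

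NFKBIA (chromosome 14, 35401513 to 35404749, NCBI gene 4792) encodes IkB alpha, the inhibitor that NF-kB itself induces and that removes dimers from the nucleus. It had 28.6, 24.3 and 26.9 FPKM in KOA_EX, against 20.8, 19.8 and 20.9 FPKM in KOA_NE, and 30.2, 24.6 and 23.8 FPKM in iR_KOA_EX, against 23.4, 20.8 and 19.9 FPKM in iR_KOA_NE. The exposed libraries were all above the unexposed ones, and NFKBIA rose by 0.36 (SE 0.091, limma adjusted p = 0.00253) in KOA and by 0.28 (adjusted p = 0.0198) in iR_KOA. The iR_KOA call was lost without iR_KOA_EX replicate 1 (0.18, adjusted p = 0.153) and without iR_KOA_NE replicate 2 or 3 (0.26 and 0.23, adjusted p = 0.0591 and 0.0912). In iR_KOA_D3_EX it had 38.0, 29.7 and 32.4 FPKM, against 33.1, 29.7 and 28.9 FPKM in iR_KOA_D3_NE, a difference of 0.12 (adjusted p = 0.309). In the wild type, NFKBIA had 34.6, 29.3 and 30.4 FPKM in iR_WTA_D3_EX, against 34.8, 31.7 and 31.8 FPKM in iR_WTA_D3_NE. It had 26.7, 24.6 and 21.6 FPKM in iR_WTA_EX, against 23.5, 24.6 and 25.1 FPKM in iR_WTA_NE. These groups overlap, with differences of -0.06 and -0.01 and 95% intervals of -0.25 to 0.13 and -0.20 to 0.18.

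NFKBIE (chromosome 6, 44258166 to 44265551, NCBI gene 4794), which encodes IkB epsilon, had 1.57, 1.13 and 1.24 FPKM in iR_KOA_D3_EX, against 2.39, 2.04 and 2.31 FPKM in iR_KOA_D3_NE. Every exposed library was below every unexposed one, and NFKBIE fell by 0.49 (SE 0.11, limma adjusted p = 0.00061), to 0.584 times in mean FPKM. In iR_WTA_D3_EX it had 2.13, 2.45 and 1.26 FPKM, against 2.63, 2.56 and 2.19 FPKM in iR_WTA_D3_NE. Replicate 3 of that exposed group stood apart from the other 2, and the difference of -0.25 did not pass (adjusted p = 0.0646). The remaining backgrounds overlapped at 2.10 to 2.94 FPKM in exposed and 1.95 to 2.51 FPKM in unexposed libraries, with differences of 0.15 in iR_KOA, 0.04 in KOA and 0.04 in iR_WTA.

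TNFAIP3 (chromosome 6, 137866349 to 137883312, NCBI gene 7128) encodes a ubiquitin-editing enzyme that shuts down signalling upstream of IKK. It had 0.434, 0.534 and 0.428 FPKM in iR_WTA_D3_EX, against 0.813, 0.781 and 0.801 FPKM in iR_WTA_D3_NE. All exposed libraries were lower, at 136, 179 and 130 reads against 261, 248 and 239 reads, and TNFAIP3 fell by 0.30 (limma without a filter, adjusted p = 8.39e-06, where 20.3% of all genes passed). With a pseudocount of 0.1 in place of 1 the difference was -0.67 (adjusted p = 0.000131). In iR_WTA_EX it had 0.478, 0.439 and 0.455 FPKM, against 0.463, 0.431 and 0.512 FPKM in iR_WTA_NE, which overlap. In iR_KOA_EX it had 0.688, 0.541 and 0.522 FPKM, against 0.465, 0.434 and 0.442 FPKM in iR_KOA_NE. That difference of 0.13 (adjusted p = 0.0307, with 15.2% of all genes past) did not pass without iR_KOA_EX replicate 1 (0.08, adjusted p = 0.209) or iR_KOA_NE replicates 2 or 3 (0.12 and 0.13, adjusted p = 0.0879 and 0.08). It did not pass at a pseudocount of 0.1 either (adjusted p = 0.0699). It averaged 0.466 ± 0.0533 FPKM in iR_KOA_D3_EX and 0.538 ± 0.0347 FPKM in iR_KOA_D3_NE, and 0.544 ± 0.0236 FPKM in KOA_EX and 0.518 ± 0.0829 FPKM in KOA_NE (SD, n = 3 each), and neither difference passed.

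BIRC3 (chromosome 11, 102317484 to 102339403, NCBI gene 330) encodes an NF-kB-induced ubiquitin ligase that promotes canonical and restrains noncanonical signalling. It had 6.23, 5.73 and 5.29 FPKM in KOA_EX, against 3.02, 2.67 and 2.99 FPKM in KOA_NE, an increase to 1.99 times in mean FPKM. In iR_KOA_EX it had 3.42, 3.98 and 3.51 FPKM, against 3.03, 2.35 and 2.23 FPKM in iR_KOA_NE, and in iR_KOA_D3_EX 2.64, 2.74 and 2.52 FPKM, against 1.99, 1.89 and 2.16 FPKM in iR_KOA_D3_NE. Exposed and unexposed libraries were separate in all 3 knockout backgrounds, and BIRC3 rose by 0.79 in KOA, 0.40 in iR_KOA and 0.27 in iR_KOA_D3 (SE 0.079 each, limma adjusted p = 1.2e-08, 0.000443 and 0.00721). No call was lost when 1 library was left out. In the wild type the groups overlap. BIRC3 had 2.33, 2.11 and 2.85 FPKM in iR_WTA_D3_EX, against 2.19, 2.05 and 2.39 FPKM in iR_WTA_D3_NE, and 2.40, 2.37 and 2.56 FPKM in iR_WTA_EX, against 2.19, 2.40 and 2.02 FPKM in iR_WTA_NE. The wild-type differences were 0.09 and 0.10 (adjusted p = 0.372 and 0.363).

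BCL3 (chromosome 19, 44747705 to 44760044, NCBI gene 602) encodes a nuclear IkB relative that works with the NFKB1 and NFKB2 products as a cofactor. It had 13.3, 11.4 and 12.2 FPKM in iR_KOA_D3_EX, against 15.0, 15.5 and 14.0 FPKM in iR_KOA_D3_NE, and 9.81, 9.79 and 10.5 FPKM in KOA_EX, against 12.3, 11.9 and 12.1 FPKM in KOA_NE. It fell by 0.25 in both backgrounds (SE 0.066, limma adjusted p = 0.00352 and 0.00376), with no overlap. In iR_KOA_EX it had 12.0, 10.8 and 10.2 FPKM, against 9.76, 9.24 and 9.40 FPKM in iR_KOA_NE, and in iR_WTA_EX 10.8, 9.39 and 9.68 FPKM, against 8.53, 8.89 and 8.50 FPKM in iR_WTA_NE. There all exposed libraries were higher, by 0.20 (adjusted p = 0.0232) and 0.18 (adjusted p = 0.0382). The iR_KOA call was lost without iR_KOA_EX replicate 1 (0.14, adjusted p = 0.137) or iR_KOA_NE replicates 2 or 3 (0.18 and 0.19, adjusted p = 0.0725 and 0.0587). The iR_WTA call was lost without iR_WTA_EX replicate 1 (0.13, adjusted p = 0.224) or any 1 of the 3 iR_WTA_NE replicates (adjusted p = 0.0957, 0.0516 and 0.102). In iR_WTA_D3_EX it had 9.92, 11.3 and 8.75 FPKM, against 9.70, 10.2 and 9.50 FPKM in iR_WTA_D3_NE, which overlap.

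Whether an exposure effect differed between backgrounds was tested with interaction terms in the same fit. Set against iR_KOA, the exposure effect in iR_KOA_D3 was lower for NFKBIE, RELB and BCL3, 3 of 9 members, where 4.14% of all genes differed. Those differences were -0.65 (SE 0.15, limma adjusted p = 0.0176), -0.40 (SE 0.094, adjusted p = 0.0165) and -0.44 (SE 0.094, adjusted p = 0.00761). The NFKBIE difference was -0.59 (adjusted p = 0.057) without iR_KOA_NE replicate 1. Set against KOA, the effect in iR_KOA was higher for RELA (0.28, SE 0.073, adjusted p = 0.022) and BCL3 (0.45, SE 0.094, adjusted p = 0.00376) and lower for BIRC3 (-0.40, SE 0.11, adjusted p = 0.0357), where 5.08% of all genes differed. The RELA call was lost in 6 of 12 fits that left out 1 library, KOA_EX replicate 2, KOA_NE replicates 1 and 3, iR_KOA_EX replicate 2 or iR_KOA_NE replicates 1 and 2 (0.26 to 0.28, adjusted p up to 0.0648). The BIRC3 call was lost in 7 of 12, without KOA_EX replicates 1 or 2, KOA_NE replicates 2 or 3, iR_KOA_EX replicates 1 or 3 or iR_KOA_NE replicate 1 (-0.42 to -0.30, adjusted p up to 0.129). Between the genotypes, no member's exposure effect differed by limma in iR_KOA against iR_WTA, where 0.538% of all genes did and 2 members, NFKBIA and BIRC3, had an unadjusted p under 0.05. The same held in iR_KOA_D3 against iR_WTA_D3, where 2.38% of all genes differed and BCL3 alone had an unadjusted p under 0.05. For BIRC3 the estimates were 0.29 (95% interval 0.06 to 0.52, adjusted p = 0.356) and 0.18 (-0.05 to 0.41, adjusted p = 0.506). No member's effect differed by limma in iR_WTA_D3 against iR_WTA, where 1.67% of all genes did and NFKB2 and RELA, 2 members, had an unadjusted p under 0.05. In the fit without a filter the TNFAIP3 effect was lower in iR_WTA_D3 than in iR_WTA by -0.29 (limma adjusted p = 0.0187, where 0.712% of all genes differed). That call was lost at a pseudocount of 0.1 (adjusted p = 0.0781), after quantile normalization (-0.24, 0.0736) and without iR_WTA_NE replicate 2 (-0.27, 0.0576).

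The RSRP1 knockout was compared with the wild type at 4 matched label sets, each of which shares its libraries with 2 of the exposure comparisons. NFKB1 and RELA were lower and REL higher in the knockout at all 4, and NFKB2 was lower at 3, most in the D3 libraries. BCL3 was higher in the D3 libraries. The members called were 7 of 9 in iR_D3_EX (2 higher, 5 lower), 5 in iR_D3_NE (2 higher, 3 lower), 5 in iR_EX (2 higher, 3 lower) and 3 in iR_NE (1 higher, 2 lower). Of all genes, 69.9%, 69.1%, 65.6% and 65.3% passed in the same order. The higher ones made up 26%, 24.8%, 27.4% and 27.9% and the lower ones 43.9%, 44.3%, 38.2% and 37.4%. The members' shares of 77.8%, 55.6%, 55.6% and 33.3% lie near or below this background. The median member differed by -0.16, -0.10, 0.10 and -0.02 in that order, and the median gene by -0.09, -0.11, -0.05 and -0.06. In iR_D3_NE, 35.9% of all called genes were higher, 47.7% after median-of-ratios scaling and 46.8% after quantile normalization.

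**Figure D4:**
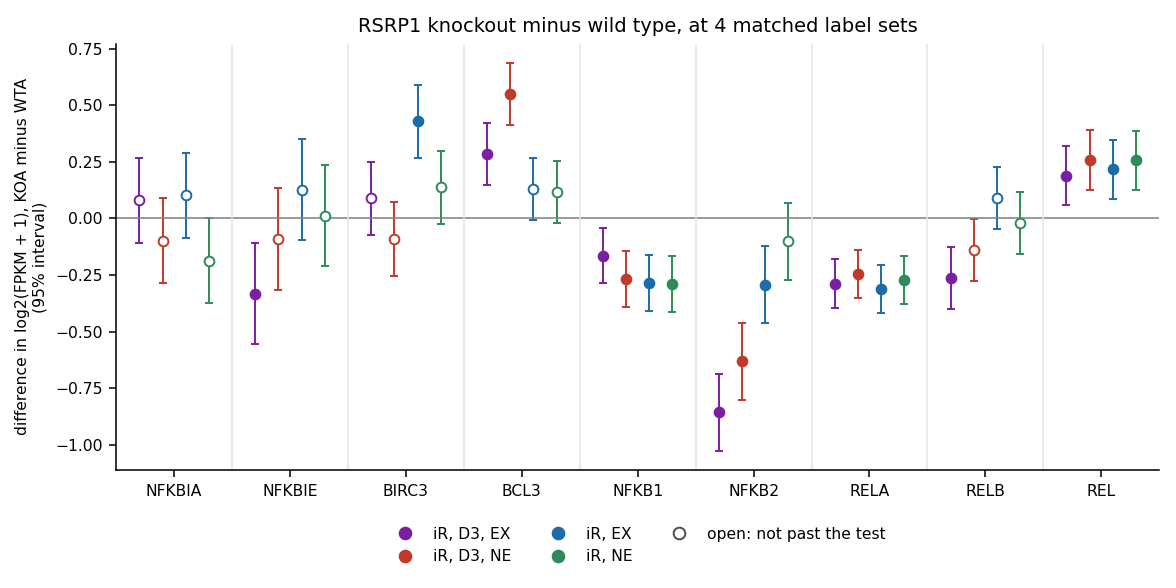
Difference in log2(FPKM + 1) between RSRP1 knockout and wild type (vertical axis, KOA minus WTA) for the 9 tested members (horizontal axis) at 4 matched label sets (colours), with 95% intervals from limma and open points where the adjusted p was not under 0.05. NFKB1 and RELA are below 0 and REL is above 0 at all 4 sets, and NFKB2 reaches -0.86 in the exposed D3 libraries.

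NFKB1 averaged 8.26 ± 0.198 FPKM in iR_KOA_D3_EX and 9.38 ± 0.213 FPKM in iR_WTA_D3_EX, and 6.25 ± 0.391 FPKM in iR_KOA_D3_NE and 7.73 ± 0.147 FPKM in iR_WTA_D3_NE (SD, n = 3 each). Knockout libraries lay below wild-type libraries at each of the 4 sets. NFKB1 differed by -0.16, -0.27, -0.29 and -0.29 in iR_D3_EX, iR_D3_NE, iR_EX and iR_NE (SE 0.060, limma adjusted p = 0.0175, 0.000309, 0.000177 and 0.000143). The first of these was lost under median-of-ratios scaling (-0.09, adjusted p = 0.193) and quantile normalization (-0.10, adjusted p = 0.165), and without replicate 2 of iR_KOA_D3_EX or iR_WTA_D3_EX (-0.15 each, adjusted p = 0.0564 and 0.054). RELA differed by -0.29, -0.25, -0.31 and -0.27 at the same sets (SE 0.052, adjusted p = 2.62e-05, 0.000186, 1.04e-05 and 6.45e-05), with 22.3 to 27.2 FPKM over the 12 knockout libraries with iR and 25.7 to 32.8 FPKM over the 12 wild-type ones. No RELA call was lost when 1 library was left out.

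NFKB2 averaged 3.70 ± 0.228 FPKM in iR_KOA_D3_EX and 7.52 ± 0.818 FPKM in iR_WTA_D3_EX, 0.492 times as much in the knockout. In the unexposed D3 groups it averaged 3.76 ± 0.0670 FPKM in the knockout and 6.38 ± 0.469 FPKM in the wild type (SD, n = 3 each). The knockout libraries were far below the wild-type ones in both, with differences of -0.86 (SE 0.083, limma adjusted p = 1.2e-09) and -0.63 (adjusted p = 2.36e-07). Without D3 the difference was -0.29 in iR_EX (adjusted p = 0.00324), where libraries overlap, and -0.10 in iR_NE (adjusted p = 0.296). REL differed the other way, by 0.19, 0.26, 0.22 and 0.26 in iR_D3_EX, iR_D3_NE, iR_EX and iR_NE (SE 0.064, adjusted p = 0.0108, 0.000895, 0.00435 and 0.00104). The REL call in iR_D3_EX was lost without iR_KOA_D3_EX replicate 3 (0.15, adjusted p = 0.0631) or iR_WTA_D3_EX replicates 1 or 2 (0.16 and 0.14, adjusted p = 0.0563 and 0.0756). RELB was lower in the knockout in iR_D3_EX by -0.26 (SE 0.066, adjusted p = 0.00113) and at the other sets differed by -0.14, 0.09 and -0.02 without passing.

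Among the inhibitors, NFKBIA did not differ past the test between the genotypes at any of the 4 sets, with differences from -0.19 in iR_NE (adjusted p = 0.0742) to 0.10 in iR_EX. NFKBIE was lower in the knockout in iR_D3_EX, at 1.31 ± 0.230 FPKM in the knockout and 1.95 ± 0.619 FPKM in the wild type (SD, n = 3 each), by -0.33 (SE 0.11, limma adjusted p = 0.00884). That call depended on the spread of iR_WTA_D3_EX, since without its replicate 2 the difference was -0.21 (adjusted p = 0.0989) and without its replicate 3 it was -0.51 (adjusted p = 2.59e-05). TNFAIP3 was lower in the knockout in iR_D3_NE, at 0.538 ± 0.0347 FPKM against 0.798 ± 0.0162 FPKM in the wild type, by -0.23 (adjusted p = 6.16e-05, with 39.2% of all genes past in the fit without a filter). In iR_EX it was higher by 0.12 (limma adjusted p = 0.0228, with 35.2% past). That call was lost without iR_KOA_EX replicate 1 (0.07, adjusted p = 0.19) or iR_WTA_EX replicates 2 or 3 (adjusted p = 0.0734 and 0.0546). Quantile normalization lost it too (0.08, adjusted p = 0.142). BIRC3 was higher in the knockout in iR_EX, at 3.64 ± 0.299 FPKM against 2.44 ± 0.103 FPKM in the wild type, by 0.43 (SE 0.079, adjusted p = 3.87e-05), and did not pass at the other 3 sets. BCL3 was higher in the knockout by 0.28 in iR_D3_EX (SE 0.066, adjusted p = 0.000504) and by 0.55 in iR_D3_NE (adjusted p = 6.28e-08), where it averaged 14.8 ± 0.755 FPKM in the knockout and 9.80 ± 0.366 FPKM in the wild type. Without D3 its differences of 0.13 and 0.12 did not pass.

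Libraries labelled D3 were compared with those without it in 4 backgrounds, whose libraries the comparisons above share. NFKBIA was higher with D3 in all 4, and RELB in 3. NFKB2 was higher with D3 in the unexposed wild type and lower in both knockout backgrounds, and BCL3 was highest in unexposed knockout libraries with D3. Members called were 4 of 9 in iR_KOA_EX (1 higher, 3 lower), 5 in iR_KOA_NE (3 higher, 2 lower), 2 in iR_WTA_EX (both higher) and 4 in iR_WTA_NE (all higher). Of all genes, 52.3%, 53.7%, 47.4% and 48.7% passed (18.1%, 19.2%, 20% and 22.3% higher, 34.1%, 34.5%, 27.4% and 26.3% lower), so the members' shares of 44.4%, 55.6%, 22.2% and 44.4% are near or below the background. The median member differed by -0.09, 0.09, -0.00 and 0.13, and the median gene by -0.06, -0.06, -0.03 and -0.01. The share of called genes that were higher was 34.7%, 35.7% and 42.3% in iR_KOA_EX, iR_KOA_NE and iR_WTA_EX. It was 52.2%, 53.9% and 55.5% after median-of-ratios scaling and 51.1%, 51.8% and 51.4% after quantile normalization.

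**Figure D5:**
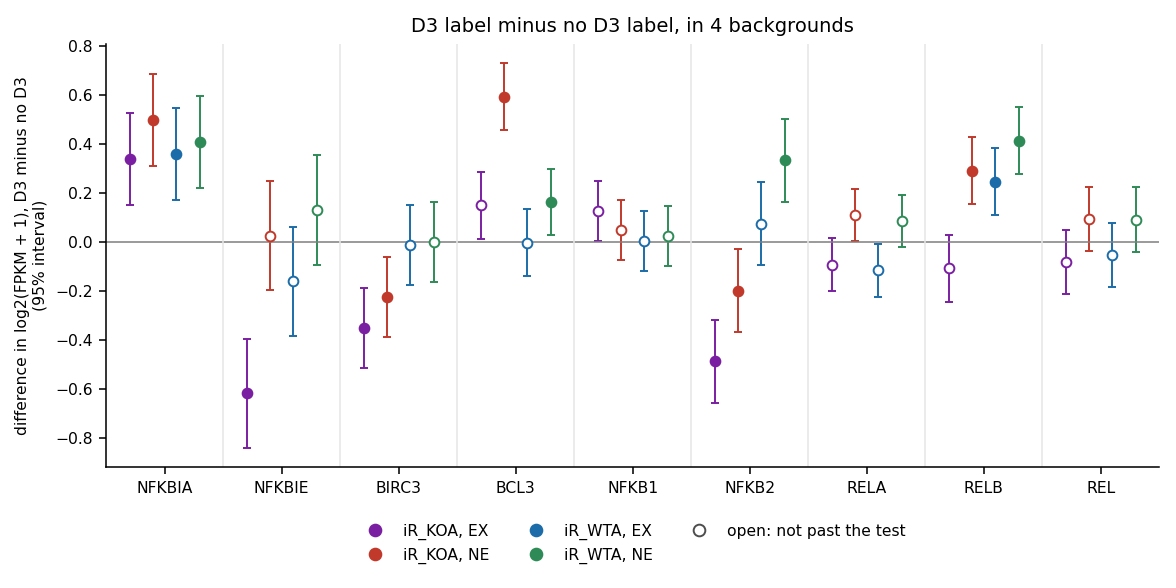
Difference in log2(FPKM + 1) between libraries with and without the label D3 (vertical axis, D3 minus no D3) for the 9 tested members (horizontal axis) in 4 backgrounds (colours), with 95% intervals from limma and open points where the adjusted p was not under 0.05. NFKBIA is above 0 in all 4 at 0.34 to 0.50, and NFKB2 is below 0 in both knockout backgrounds and at 0.33 in the unexposed wild type.

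NFKBIA averaged 33.4 ± 4.25 FPKM in iR_KOA_D3_EX and 26.2 ± 3.45 FPKM in iR_KOA_EX, and 30.6 ± 2.23 FPKM in iR_KOA_D3_NE and 21.4 ± 1.81 FPKM in iR_KOA_NE (SD, n = 3 each). In the wild type it averaged 31.4 ± 2.79 FPKM in iR_WTA_D3_EX and 24.3 ± 2.57 FPKM in iR_WTA_EX, and 32.8 ± 1.76 FPKM in iR_WTA_D3_NE and 24.4 ± 0.846 FPKM in iR_WTA_NE. The D3 libraries were all higher except in iR_KOA_EX, where the groups overlap. NFKBIA rose by 0.34, 0.50, 0.36 and 0.41 in iR_KOA_EX, iR_KOA_NE, iR_WTA_EX and iR_WTA_NE (SE 0.091, limma adjusted p = 0.00308, 5.29e-05, 0.00205 and 0.000611), and no call was lost when 1 library was left out. In the order of the 10 group means its 4 D3 groups came first, and only the step to KOA_EX separated the libraries of neighbouring groups. NFKBIE was lower with D3 in exposed knockout libraries alone, at 1.31 ± 0.230 FPKM with D3 and 2.55 ± 0.375 FPKM without it, by -0.62 (SE 0.11, adjusted p = 3.41e-05), and its differences in the other 3 backgrounds ran from -0.16 to 0.13. The D3 effect in exposed knockout libraries was lower than in unexposed ones by -0.65, the same interaction term as given above for exposure (limma adjusted p = 0.0176), and it was not tested against the D3 effects in the wild type.

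TNFAIP3 was higher with D3 in the unexposed wild type, at 0.798 ± 0.0162 FPKM with D3 and 0.469 ± 0.0404 FPKM without it, by 0.29 (limma without a filter, adjusted p = 5.8e-06, where 23.4% of all genes passed). In iR_KOA_EX the difference was -0.11 (limma adjusted p = 0.0466, where 24.9% passed). That call was lost without iR_KOA_EX replicate 1 (-0.06, adjusted p = 0.312) or iR_KOA_D3_EX replicates 2 or 3 (-0.08 and -0.12, adjusted p = 0.228 and 0.0644). It was also lost under median-of-ratios scaling and quantile normalization (-0.08 each, adjusted p = 0.158 and 0.244). BIRC3 was lower with D3 in iR_KOA_EX by -0.35 (SE 0.079, adjusted p = 0.000594). In iR_KOA_NE it differed by -0.23 (adjusted p = 0.0189), a call lost under both scalings (-0.16 and -0.18) and without iR_KOA_NE replicate 1 (-0.13, adjusted p = 0.191) or iR_KOA_D3_NE replicate 2 (-0.20, adjusted p = 0.0738). In the wild type it differed by -0.01 and 0.00, with 95% intervals of -0.17 to 0.15 and -0.16 to 0.16. BCL3 averaged 14.8 ± 0.755 FPKM in iR_KOA_D3_NE and 9.47 ± 0.269 FPKM in iR_KOA_NE (SD, n = 3 each) and rose by 0.60 (SE 0.066, adjusted p = 3.56e-08). In iR_WTA_NE its difference of 0.16 (adjusted p = 0.0432) was lost when any 1 of the 6 libraries was left out (adjusted p up to 0.145).

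NFKB2 was lower with D3 in iR_KOA_EX by -0.49 (SE 0.083, limma adjusted p = 2.18e-05) and higher in iR_WTA_NE by 0.33 (adjusted p = 0.00161). In iR_KOA_NE the difference of -0.20 (adjusted p = 0.0462) was lost under both scalings (-0.12 and -0.13) and in 5 of 6 fits that left out 1 library, of which iR_KOA_NE replicate 2 was the exception (adjusted p up to 0.131). The D3 effect in unexposed libraries was lower in the knockout than in the wild type for NFKB2, by -0.53 (SE 0.12, adjusted p = 0.00185), and higher for BCL3, by 0.43 (SE 0.094, adjusted p = 0.0017). Those are 2 of 9 members, where 17.5% of all genes differed, 29.6% of them higher, 47.9% after median-of-ratios scaling and 47.1% after quantile normalization. The TNFAIP3 effect was lower in the knockout by -0.20 in the fit without a filter (limma adjusted p = 0.0242, where 8.46% of all genes differed). That call was lost at a pseudocount of 0.1 (adjusted p = 0.114), under median-of-ratios scaling (-0.18, 0.0542) and after quantile normalization (-0.12, 0.342). It was also lost without iR_KOA_D3_NE replicates 1 or 3, iR_KOA_NE replicate 1, iR_WTA_D3_NE replicate 1 or iR_WTA_NE replicate 2 (adjusted p up to 0.0655). RELB rose with D3 by 0.29 in iR_KOA_NE, 0.25 in iR_WTA_EX and 0.41 in iR_WTA_NE (SE 0.066, adjusted p = 0.000622, 0.00333 and 1.3e-05), and differed by -0.11 in iR_KOA_EX (adjusted p = 0.182). NFKB1, RELA and REL did not pass in any of the 4 backgrounds, with differences of 0.01 to 0.13, -0.12 to 0.11 and -0.08 to 0.09.

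The label iR was compared with its absence in the knockout only. RSRP1 itself was higher with iR, by 1.34 in unexposed and 1.21 in exposed libraries (SE 0.059, limma adjusted p = 6.1e-15 and 2.61e-14). Its part in the iR results, and in the exposure effects of iR_KOA set against KOA, was not tested. In exposed libraries BIRC3 was lower with iR, at 3.64 ± 0.299 FPKM in iR_KOA_EX and 5.75 ± 0.474 FPKM in KOA_EX (SD, n = 3 each), by -0.54 (SE 0.079, limma adjusted p = 6.26e-06). NFKB2 was lower by -0.29 (SE 0.083, adjusted p = 0.00622; -0.22 and 0.0566 without iR_KOA_EX replicate 2). RELB was lower by -0.20 (SE 0.066, adjusted p = 0.0189), a call lost after quantile normalization (-0.13) and without KOA_EX replicate 2 or iR_KOA_EX replicate 3 (-0.17 each, adjusted p = 0.0799 and 0.0738). In unexposed libraries BCL3 was lower with iR, at 9.47 ± 0.269 FPKM in iR_KOA_NE and 12.1 ± 0.211 FPKM in KOA_NE, by -0.32 (SE 0.066, adjusted p = 0.00044). RELA was lower by -0.15 (SE 0.052, adjusted p = 0.0216), which was lost without KOA_NE replicates 1 or 3 or iR_KOA_NE replicates 1 or 2 (adjusted p up to 0.0886). These are 3 and 2 of 9 members, 33.3% and 22.2%, with 39.8% (16.3% higher, 23.4% lower) and 38.5% (18.7% higher, 19.8% lower) of all genes past the test, no more than the background. The median member differed by -0.03 in exposed and -0.13 in unexposed libraries, and the median gene by -0.02 and -0.00. In the exposed comparison 41.1% of called genes were higher, 46.5% after median-of-ratios scaling and 52.8% after quantile normalization.

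The steps of the pathway above and below the members were read from 5 further lists. Their counts are to be read against the share of all genes past the test, which was 28.6% to 45.1% for exposure, 65.3% to 69.9% for genotype, 47.4% to 53.7% for D3 and 38.5% to 39.8% for iR. Higher genes made up 11.4% to 18.8% for exposure, 24.8% to 27.9% for genotype, 18.1% to 22.3% for D3 and 16.3% to 18.7% for iR. Lower genes made up 17.2% to 27.8%, 37.4% to 44.3%, 26.3% to 34.5% and 19.8% to 23.4% in the same order. Of the 24 other NF-kB target genes, 16 were tested. With exposure 4 rose and 5 fell in iR_KOA_D3, 9 rose and 2 fell in iR_KOA, 11 rose and 1 fell in KOA, 2 rose and 6 fell in iR_WTA_D3, and 5 rose and 3 fell in iR_WTA. Their medians were -0.07, 0.27, 0.47, -0.15 and -0.03 in the same order, beside -0.05 to -0.02 for all genes. In KOA the stress gene GADD45B averaged 10.8 FPKM in exposed and 2.20 FPKM in unexposed libraries (difference 1.88, limma adjusted p = 3.1e-14), and the neutrophil chemokine CXCL8 4.82 and 1.94 FPKM (0.99, adjusted p = 4.1e-08). In iR_WTA_D3 the monocyte chemokine CCL2 averaged 12.9 FPKM in exposed and 28.0 FPKM in unexposed libraries (-1.06, adjusted p = 4.6e-07). The knockout had 7 higher and 5 lower, 6 and 7, 5 and 8, and 4 and 9 of these targets in iR_D3_EX, iR_D3_NE, iR_EX and iR_NE, 12 or 13 of 16 beside 65.3% to 69.9% of all genes. In iR_NE, CCL2 averaged 5.79 FPKM in the knockout and 28.9 FPKM in the wild type (-2.16, adjusted p = 1.2e-13), and the chemokine CXCL1 9.66 and 43.1 FPKM (-2.05, adjusted p = 5.9e-18). With D3, 7 rose and 6 fell in iR_KOA_EX, 8 and 0 in iR_KOA_NE, 3 and 7 in iR_WTA_EX and 5 and 2 in iR_WTA_NE. With iR, none rose and 12 fell in KOA_EX, and 2 rose and 6 fell in KOA_NE. Their medians lay between -0.22 and -0.02 for genotype and between -0.13 and 0.16 for D3, and were -0.36 and -0.09 for iR. For all genes the medians lay between -0.11 and -0.05 for genotype, between -0.06 and -0.01 for D3, and at -0.02 and -0.00 for iR.

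Among all genes, 11.4% to 18.8% rose and 17.2% to 27.8% fell with exposure. For D3, 18.1% to 22.3% rose and 26.3% to 34.5% fell, and for iR 16.3% to 18.7% and 19.8% to 23.4%. Of 12 other IkB proteins and feedback regulators, 11 were tested. With exposure 4 rose and 3 fell in iR_KOA_D3, 4 and 2 in iR_KOA, 6 and 0 in KOA, 2 and 2 in iR_WTA_D3 and 3 and 1 in iR_WTA. OTULIN, which removes linear ubiquitin chains, rose in all 5 backgrounds by 0.35 to 0.55. Knockout libraries had 3 higher and 7 lower in iR_D3_EX, 0 and 8 in iR_D3_NE, 1 and 7 in iR_EX and 0 and 7 in iR_NE. That is 7 to 10 of 11 called, where 65.3% to 69.9% of all genes were. The lower genes made up 43.9%, 44.3%, 38.2% and 37.4% of all genes in the same order, the higher ones 26%, 24.8%, 27.4% and 27.9%. NFKBIZ, a nuclear IkB, averaged 0.847 FPKM in the knockout and 3.49 FPKM in the wild type in iR_NE, and was lower at all 4 sets by -1.38 to -0.98 (limma adjusted p of 1.2e-11 or less). With D3, 0 rose and 2 fell in iR_KOA_EX, 3 and 3 in iR_KOA_NE, 2 and 5 in iR_WTA_EX and 3 and 2 in iR_WTA_NE, and with iR 0 and 5 in KOA_EX and 0 and 3 in KOA_NE. Medians of this list lay between -0.04 and 0.14 for exposure, -0.20 and -0.18 for genotype, -0.04 and 0.07 for D3, and -0.09 and -0.06 for iR. All 11 genes of the IKK complex and its upstream kinases were tested, with 3 higher and 6 lower in iR_KOA_D3, 1 and 3 in iR_KOA, 1 and 4 in KOA, 3 and 6 in iR_WTA_D3 and 1 and 2 in iR_WTA on exposure. MAP3K14, the noncanonical kinase, rose in all 5 by 0.28 to 0.71, and TAB1, an adaptor of the kinase MAP3K7, fell in all 5 by -0.74 to -0.37. The knockout had 1 higher and 7 lower, 1 and 4, 1 and 5, and 1 and 4 of them in iR_D3_EX, iR_D3_NE, iR_EX and iR_NE. With D3, 0 rose and 9 fell in iR_KOA_EX, 0 and 5 in iR_KOA_NE, 0 and 4 in iR_WTA_EX and 1 and 3 in iR_WTA_NE. The share of all genes that fell was 34.1%, 34.5%, 27.4% and 26.3% in the same order. With iR, 1 of the 11 rose and 0 fell in KOA_EX, and 2 rose and 1 fell in KOA_NE. The kinase medians lay between -0.23 and -0.02 for exposure, -0.22 and -0.09 for genotype, -0.18 and 0.00 for D3, and -0.01 and 0.04 for iR.

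Shares of all genes were again 11.4% to 18.8% higher and 17.2% to 27.8% lower for exposure. For D3 they were 18.1% to 22.3% and 26.3% to 34.5%, and for iR 16.3% to 18.7% and 19.8% to 23.4%. All 13 TRAF, cellular IAP and ubiquitin adaptors were tested. With exposure 4 rose and 7 fell in iR_KOA_D3, 4 and 5 in iR_KOA, 4 and 4 in KOA, 4 and 6 in iR_WTA_D3 and 3 and 3 in iR_WTA. TRAF2, which brings BIRC2 and BIRC3 to receptors, averaged 8.59 FPKM in iR_KOA_D3_EX and 4.29 FPKM in iR_KOA_D3_NE, and rose in all 5 backgrounds by 0.63 to 0.86 (limma adjusted p of 4.9e-06 or less). RNF31, the catalytic part of the linear ubiquitin ligase, fell in all 5 by -0.87 to -0.35. The knockout had 3 higher and 7 lower, 1 and 7, 2 and 8, and 2 and 8 in iR_D3_EX, iR_D3_NE, iR_EX and iR_NE. That is 8 to 10 of 13 called, where 65.3% to 69.9% of all genes were. The lower genes made up 37.4% to 44.3% of all genes and the higher ones 24.8% to 27.9%. RBCK1, a partner of RNF31, was lower at all 4 sets by -1.44 to -0.57. With D3, 2 rose and 6 fell in iR_KOA_EX, 1 and 6 in iR_KOA_NE, 1 and 5 in iR_WTA_EX and 2 and 2 in iR_WTA_NE, and with iR 3 and 7 in KOA_EX and 3 and 6 in KOA_NE. The adaptor medians lay between -0.18 and -0.01 for exposure, -0.38 and -0.17 for genotype, -0.12 and -0.01 for D3, and -0.18 and -0.16 for iR. Of 10 receptors, 8 were tested, with 3 higher and 2 lower in iR_KOA_D3, 2 and 3 in iR_KOA, 3 and 2 in KOA, 1 and 3 in iR_WTA_D3 and 1 and 1 in iR_WTA on exposure. The knockout had 3 higher and 2 lower, 4 and 2, 4 and 2, and 5 and 3 in iR_D3_EX, iR_D3_NE, iR_EX and iR_NE. TNFRSF12A, a receptor of noncanonical signalling, averaged 41.2 FPKM in the knockout and 139 FPKM in the wild type in iR_NE and was lower at all 4 sets by -1.82 to -1.17, while the interleukin receptor IL1R1 was higher at all 4 by 0.81 to 1.20. With D3, 4 rose and 1 fell in iR_KOA_EX, 4 and 2 in iR_KOA_NE, 3 and 1 in iR_WTA_EX and 2 and 2 in iR_WTA_NE, and with iR 1 and 6 in KOA_EX and 0 and 1 in KOA_NE. The receptor medians lay between -0.11 and 0.03 for exposure, 0.00 and 0.26 for genotype, 0.07 and 0.12 for D3, and -0.18 and -0.06 for iR.

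Across the 10 group means of log2(FPKM + 1), which share libraries, NFKB1 and REL ran in opposite directions (Pearson r = -0.90) and NFKB1 and NFKB2 together (r = 0.68). The tested genes whose pattern was most like a member's by the same measure were IP6K1 for NFKB1 (r = 0.98), SEC22A for NFKB2 (0.94), FBXO42 for RELA (0.98), STX17 for RELB (0.96) and ASAP3 for REL (0.97). They were VGLL4 for NFKBIA (0.96), RECQL5 for NFKBIE (0.92), LINC00997 for BIRC3 (0.95) and LOC105371960 for BCL3 (0.94). With 10 points and 12086 genes to choose from, these are descriptions only.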

How the data were processed

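FPKM values per gene were deposited by the authors in 1 table. The tools fastp, HISAT2 and HTSeq and the build GRCh38 are named, without versions or roles, per the submitters' processing notes. The gene annotation and the use of strand in counting are not stated in these notes, so reads of overlapping antisense genes cannot be told apart. Library columns were matched to samples by title, and 6 further columns with values of single libraries had no matching sample and were left out. For 26605 of 26801 genes the FPKM of all libraries came out as whole reads within a tolerance of 0.01, which gave the reads per member and implied totals of 34600000 to 38900000 fragments.

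A linear model of log2(FPKM + 1) with 10 group means was fitted in limma 3.58.1 (R 4.3.3) with a mean-variance trend and 20 residual degrees of freedom. It covered 12086 genes, 9 members among them, that reached 1 FPKM in 3 or more libraries. Tests were two-sided with Benjamini-Hochberg adjustment over all genes within a comparison and a threshold of 0.05, for 15 comparisons between 2 groups and 6 differences of effects. TNFAIP3 was below the filter and was read from a fit of 25991 genes. The fitting was tested on simulated data. Same-numbered libraries deviated together, with every correlation above 0.1, for exposure in iR_KOA_D3 (0.115 to 0.168) and iR in KOA_EX (0.142 to 0.279) and in no other comparison between 2 groups. Alternatives were a pseudocount of 0.1, no filter, a filter of 5 FPKM, median-of-ratios scaling, quantile normalization, a replicate block, no trend, only the compared groups, and leaving out each library. Those for TNFAIP3, combined with no filter, were chosen after seeing the data.

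The members and the pathway lists were chosen with earlier results of these data known. From each list, up to 3 genes a comparison could be named, those past the threshold with the largest difference and at least 2 FPKM in 1 of the groups. The gene most like a member was the tested gene with the highest Pearson correlation over the 10 group means. Sequences, positions and gene identifiers are from RefSeq on GRCh38.p14, matched by symbol.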

Additional observations from a re-analysis of the deposited data

Results flagged for a closer look

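Each of these values is a difference between 2 effects in log2(FPKM + 1), from an interaction term in limma that passed the threshold. The exposure effect in iR_KOA_D3 was below that in iR_KOA by -0.65 for NFKBIE (adjusted p = 0.0176), -0.4 for RELB (0.0165) and -0.44 for BCL3 (0.00761). In iR_KOA it differed from KOA by -0.4 for BIRC3 (adjusted p = 0.0357), 0.28 for RELA (0.022) and 0.45 for BCL3 (0.00376). Leaving out 1 library lost this BIRC3 call in 7 of 12 fits, the RELA call in 6 and the NFKBIE call in 1. The BIRC3 call was also lost at a pseudocount of 0.1, without a filter and with only the compared groups (adjusted p = 0.0838, 0.0702 and 0.107). The D3 effect in unexposed knockout libraries differed from that in unexposed wild-type libraries by -0.53 for NFKB2 (adjusted p = 0.00185) and 0.43 for BCL3 (0.0017). In the fit without a filter TNFAIP3 differed by -0.29 for exposure, iR_WTA_D3 minus iR_WTA (adjusted p = 0.0187), and by -0.2 for D3, knockout minus wild type (0.0242). Neither TNFAIP3 difference passed at a pseudocount of 0.1 (adjusted p = 0.0781 and 0.114) or after quantile normalization (0.0736 and 0.342). BCL3 appears in all 3 sets of tested members, but the 3 terms all contain the iR_KOA_NE libraries, so these are not 3 separate findings. The 2 exposure terms also share the exposure effect in iR_KOA, with opposite signs. Of all genes, 4.14% differed in iR_KOA_D3 minus iR_KOA, 5.08% in iR_KOA minus KOA and 17.5% in the D3 term.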

How the results depend on the processing

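Of 189 values of the 9 tested members, which leave out TNFAIP3, 75 were called. No value called in the main fit or in an alternative run changed sign between them. The signs of values called in neither were not compared. Of 67 calls between 2 groups, 50 held in every fit that left out 1 library and 17 were lost in at least 1. Counts of members called moved by over 1.5 times as follows. Without a filter, exposure in iR_KOA had 3 called, not 5. With a filter of 5 FPKM, NFKBIE, RELB and REL were no longer tested, and no call of the members still tested was lost. BIRC3 passed that filter only through its 3 KOA_EX libraries (5.29 to 6.23 FPKM), its highest group, so its kept calls are no separate support. Exposure then had 4 in iR_KOA_D3 (not 7) and 3 in iR_WTA_D3 (not 5), and genotype in iR_D3_EX had 4 (not 7). D3 in iR_WTA_EX had 1 (not 2), and the exposure effect in iR_KOA_D3 minus iR_KOA had 1 (not 3). Quantile normalization left 3 for exposure in iR_WTA_D3. With only the compared groups fitted, 2 were left for exposure in iR_KOA and 2 in iR_WTA_D3. Apart from the 5 FPKM filter, the cause of these moves was not tested.

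Leaving out 1 library at a time, exposure gave 2 to 5 called in iR_KOA, 2 to 4 in iR_WTA and 3 to 4 in iR_WTA_D3. Genotype in iR_D3_EX gave 4 to 7, D3 gave 3 to 5 in iR_KOA_NE and 2 to 4 in iR_WTA_EX, and iR in KOA_NE gave 1 to 2. Differences of exposure effects gave 1 to 3 in iR_KOA minus KOA, 0 to 1 in iR_KOA_D3 minus iR_WTA_D3 and 0 to 1 in iR_WTA_D3 minus iR_WTA. Over all member values these fits lost a call 63 times and gained one 20 times. The other scalings moved the median difference of all genes by at most 0.083.

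Same-numbered libraries had deviation correlations of -0.325 to 0.306, all 3 above 0.1 in 2 of 15 comparisons, exposure in iR_KOA_D3 and iR in KOA_EX, and the labels do not say what a number marks. With the replicate block those 2 kept 7 and 3 called. The block lost no call and gave 5 called for D3 in iR_KOA_EX (not 4), 6 for genotype in iR_D3_NE (not 5) and 4 in iR_NE (not 3). Depth limits NFKBIE, RELB and TNFAIP3 most, at 96 to 239, 105 to 256 and 127 to 261 reads a library.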
